A study of Mus musculus and Homo sapiens with 12 samples.

Results

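The genes described here are the replication-dependent histone genes and the linker histone genes, 40 in all. They were taken by symbol from the gene names deposited with the counts: every symbol beginning with H1-, H2AC, H2BC, H3C or H4C and a number, or with HIST1H to HIST4H, whatever its case. The members described are 33 of the 14931 human genes with a symbol and 7 of the 11908 mouse genes. The human members are 5 linker histones (H1), 5 H2A, 12 H2B, 4 H3 and 7 H4 genes. Of these, 28 lie on chromosome 6 between positions 26054760 and 27893891, 3 on chromosome 1, and 1 each on chromosomes 12 (H4C16) and 3 (H1-10). The mouse members are 2 H2A, 4 H2B and 1 H4 gene, with 5 on chromosome 13, 1 on chromosome 3 and 1 on chromosome 11. No mouse linker or H3 gene bears a name that matches. The deposited name table lists only genes with at least 10 counts in at least 3 mouse libraries or at least 5 counts in at least 3 human libraries, so the 40 are not all histone genes.

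The study measured polyadenylated RNA in blood progenitors with reduced DDX21, a nucleolar RNA helicase of the DEAD-box family. The mouse groups were wild type (WT, Ddx21f/f) and conditional knockout (cKO, Vav-Cre; Ddx21f/f), 3 libraries each, both made from lineage-negative Kit-positive (LK) cells of fetal liver at embryonic stage E13.5. All mouse groups thus carried the floxed Ddx21 alleles, and only cKO carried Cre, driven by Vav regulatory sequence that works in blood-forming cells. The human groups were cells differentiated toward blood from H1, an established line of human embryonic stem cells, and sorted for CD34, CD45 and CD43 on day 2 after lentiviral transduction. They received a control hairpin (shNC-mCherry) or a hairpin against DDX21 (shDDX21-mCherry), 3 libraries each, so all human cells carried a lentivirus and came from 1 cell line. The labels do not say whether the replicates were separate embryos or cultures, and p-values measure only the spread between these libraries.

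Histone proteins package DNA: an octamer of H2A, H2B, H3 and H4 forms the nucleosome core and H1 binds the linker between nucleosomes. The canonical core histones and most H1 subtypes are made from many near-identical genes that sit in clusters and are expressed mainly in S phase, under the coactivator NPAT. Their messages are unusual in ending in a stem-loop without a poly(A) tail. The stem-loop-binding protein SLBP and the U7 small nuclear ribonucleoprotein direct the cut that makes this end. Some of the same genes also give polyadenylated messages when transcription passes the stem-loop and a downstream poly(A) signal is used. Replacement histones such as H1-10, H2AZ1 and H3-3B are made outside S phase from ordinary polyadenylated messages. Libraries selected for poly(A) therefore report the polyadenylated forms of the clustered genes and give no measure of the stem-loop forms.

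Total counts were 21116079 to 23898130 per mouse library and 15289510 to 19798608 per human library. The targeted gene checked the labels: Ddx21 changed by -2.35 on the log2 scale in cKO, and DDX21 by -2.78 in shDDX21. The mouse libraries spread within groups more than the human ones, whose pairs had a chi-square per degree of freedom of 1.54 to 1.71. It was 1.96 between WT replicates 1 and 2, 15.8 and 11 between WT replicate 3 and these, 25.9 between cKO replicates 1 and 2, and 7.38 and 8 between these and cKO replicate 3. Differences below are log2 fold changes, perturbed over control, from the quasi-likelihood test of edgeR, with p adjusted (Benjamini-Hochberg) over all genes tested in that experiment. A gene was called at an adjusted p under 0.05, SE is the standard error of the log2 fold change, and levels are CPM, counts relative to the TMM-scaled library size. The median log2 fold change over all genes tested was 0.001 in the mouse and 0.005 in the human experiment.

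In the human cells the core histone genes were higher after DDX21 knockdown. Of 32 members tested, 27 were called higher, 1 was called lower and 4 were not called; over all 20188 genes tested, 25.3% were called higher, 27.4% lower and 52.7% in either direction. Of the 27, 20 were at least 2-fold higher, a size reached by 3.35% of all genes tested. All 3 shDDX21 libraries lay above all 3 shNC libraries for 28 of the 32 members, against 27.9% of all genes, and below them for 1 member, against 29.5%. The median log2 fold change was 1.14. The remaining member, H1-3, was too low to test, with 13, 3 and 5 counts in shNC against 11, 9 and 23 in shDDX21. In these bulk libraries, more RNA per cell and a larger share of cells that express a gene cannot be told apart.

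**Figure D1:**
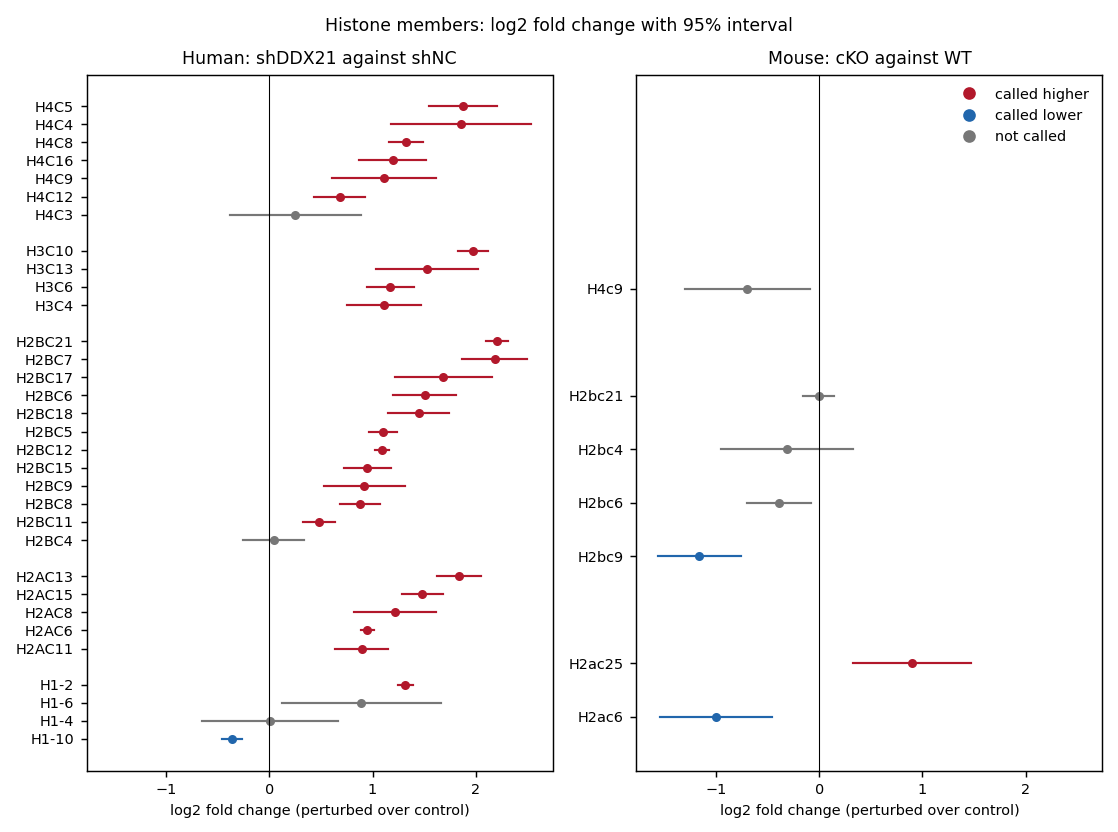
Log2 fold change of each tested histone member in the human (left) and mouse (right) experiment, with bars of the 95% interval (1.96 SE on either side), ordered by histone type; red marks genes called higher, blue genes called lower and grey genes not called. In the human panel 27 of 32 points are red, while in the mouse panel 2 of 7 are blue, 1 is red and 4 are grey.

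All 5 human H2A, 4 of 4 H3, 11 of 12 H2B and 6 of 7 H4 members were called higher, against 25.3% of all genes tested. Summed over the members of a type, H2A rose from 113 ± 2.21 CPM in shNC to 231.8 ± 7.39 CPM in shDDX21 (SD, n = 3 each). H2B went from 171.3 ± 5.02 to 405.9 ± 6.54 CPM. H3 had the largest ratio of the sums, 1.68 on the log2 scale, from 19.6 ± 1.77 to 62.9 ± 1.47 CPM. H4 went from 23.2 ± 0.557 to 53.8 ± 2.46 CPM. For each of these 4 types the lowest shDDX21 library was above the highest shNC library. H1 went from 120.8 ± 6.85 to 190.3 ± 2.45 CPM, a ratio of 1.58, and without H1-10, which was called lower, from 57.2 ± 1.42 to 140.6 ± 3.05 CPM, a ratio of 2.46. All 33 members together made up 0.0451% to 0.0452% of the counts of a shNC library and 0.0926% to 0.0936% of a shDDX21 library. Without the replacement linker histone H1-10, the sum of the other 32 went from 384.4 ± 6.87 to 895 ± 6.11 CPM, or 2.33-fold. These sums are descriptions of the chosen members and were not tested.

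**Figure D2:**
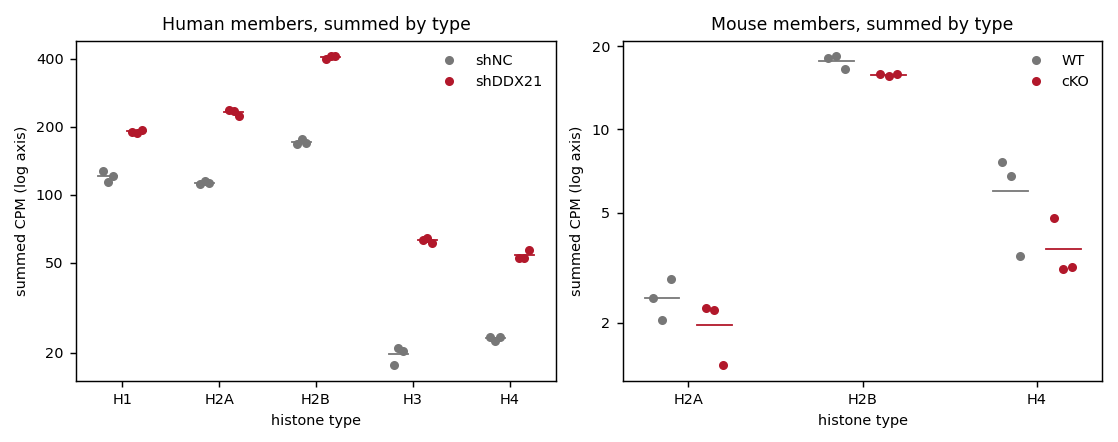
Summed CPM of the histone members by type in each library, on log axes; points are libraries, short lines are group means, grey is the control and red the perturbed group. In the human panel the groups are apart for all 5 types, and in the mouse panel the H2A and H4 points of the groups overlap.

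Among the human linker histones, only H1-2 was called higher. H1-2, a somatic H1 subtype of the chromosome 6 cluster (minus strand, 26054760 to 26056470), had 1071, 836 and 974 counts in shNC against 2643, 2321 and 2464 in shDDX21. Every shDDX21 library was above every shNC library, and the log2 fold change was 1.31 (adjusted p 2.48e-43, SE 0.037). H1-10, a replication-independent subtype, had 1304, 889 and 1131 counts in shNC against 1008, 810 and 863 in shDDX21. The raw counts of its groups overlap, but after scaling all shDDX21 libraries were below all shNC libraries, and H1-10 fell by 0.36 on the log2 scale (adjusted p 1.55e-09, SE 0.049). H1-10 shares 24.5% of its exon bases with an overlapping gene that has no symbol in the files.

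The low linker genes gave less precise values. H1-4, a somatic subtype, had 18, 15 and 18 counts in shNC against 16, 20 and 17 in shDDX21, a log2 fold change of 0.01 with a 95% interval of -0.65 to 0.66. H1-6, known as the testis linker histone, had 10, 6 and 11 counts in shNC against 14, 16 and 22 in shDDX21. It passed the filter on low counts only through its shDDX21 libraries. All its shDDX21 libraries lay above its shNC libraries, and the difference of 0.89 was not called (adjusted p 0.0506), though it was with RLE factors (0.0494), with upper-quartile factors (0.0338) and without shDDX21 replicate 1 (0.0369).

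In shNC the most abundant clustered message by CPM was that of the H2A gene H2AC6, at 95.3 against 88.1 for H2BC12. In shDDX21 H2BC12, at 187.2 CPM, was above H2AC6, at 183.5 CPM. H2AC6 (chromosome 6, plus strand, 26124145 to 26139116) had 1770, 1489 and 1687 counts in shNC against 3663, 3132 and 3105 in shDDX21. The groups did not overlap, and the log2 fold change was 0.95 (adjusted p 2.24e-38, SE 0.032). H2AC13 (27808173 to 27808667) had 85, 85 and 87 counts in shNC against 350, 311 and 292 in shDDX21, a log2 fold change of 1.84 (adjusted p 5.85e-25, SE 0.11). It is a short single-exon gene of 495 bases, against 1668 exon bases for H2AC6. H2AC15 had 107, 109 and 112 counts in shNC against 349, 285 and 319 in shDDX21 and rose by 1.48 (adjusted p 2.32e-21, SE 0.10). H2AC8 and H2AC11 rose by 1.21 and 0.89. Within this type the abundant H2AC6 thus had a smaller fold change than H2AC13 and H2AC15.

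H2B members spanned the widest range, from 0.04 to 2.21 on the log2 scale. H2BC21 (chromosome 1, minus strand, 149884459 to 149886682), which encodes the H2B type 2-E protein, had 350, 308 and 398 counts in shNC against 1771, 1612 and 1668 in shDDX21. This was the largest fold change of any member, 4.61-fold or 2.21 on the log2 scale (adjusted p 1.28e-47, SE 0.053), from 20.3 ± 1.95 to 93.8 ± 2.54 CPM (SD, n = 3 each). No other annotated gene overlaps it in the files. H2BC12 (chromosome 6, minus strand, 27137298 to 27146855), the H2B gene with the highest level, had 1608, 1448 and 1503 counts in shNC against 3656, 3163 and 3274 in shDDX21. Its log2 fold change was 1.09 (adjusted p 4.72e-41, SE 0.034), and again no libraries overlapped between groups.

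H2BC7 had 43, 20 and 51 counts in shNC against 175, 184 and 177 in shDDX21, a log2 fold change of 2.18 (adjusted p 4.79e-20, SE 0.16). H2BC17 rose from 19, 21 and 15 counts to 70, 50 and 65, by 1.69 (adjusted p 5.88e-09, SE 0.24). H2BC6 rose from 73, 48 and 47 counts to 154, 131 and 209, by 1.505 (adjusted p 1.21e-13, SE 0.15). In all 3 genes the lowest shDDX21 library held more than the highest shNC library. H2BC18, H2BC5, H2BC15, H2BC9, H2BC8 and H2BC11 rose by 1.45, 1.10, 0.95, 0.92, 0.88 and 0.48. H2BC4 was the H2B gene that was not called, with 78, 68 and 91 counts in shNC, 91, 82 and 80 in shDDX21 and an interval of -0.26 to 0.34 for its log2 fold change. H2BC4 spans 37610 bases, contains H4C3 and H1-6 within its span, and shares 55.2% of its exon bases with other genes, HFE among its overlapping neighbours.

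All 4 H3 members rose by more than 2-fold. H3C10 (chromosome 6, plus strand, 27810051 to 27811300) was the most abundant, with 184, 179 and 208 counts in shNC against 826, 758 and 738 in shDDX21. It rose 3.92-fold, or 1.97 on the log2 scale (adjusted p 3.83e-36, SE 0.073), and overlaps no other gene. H3C13 on chromosome 1 had 12, 24 and 19 counts in shNC against 60, 50 and 56 in shDDX21 and rose by 1.53 (adjusted p 2.65e-07, SE 0.25). H3C6 and H3C4 rose by 1.17 and 1.11. H3C4 shares 81.0% of its exon bases with overlapping genes that have no symbol in the files.

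Among H4 members, H4C8 (chromosome 6, minus strand, 26277609 to 26285638) had the highest CPM, with 206, 166 and 187 counts in shNC against 502, 432 and 518 in shDDX21. Its log2 fold change was 1.32 (adjusted p 1.13e-23, SE 0.082). Per kilobase of exon H4C8 was at 4.97 CPM in shNC and 12.5 in shDDX21, below the short gene H4C12 at 8.32 and 13.4. H4C5 had 36, 33 and 31 counts in shNC against 151, 115 and 116 in shDDX21, a log2 fold change of 1.87 (adjusted p 5.01e-16, SE 0.17). H4C4, with 8, 6 and 10 counts against 32, 28 and 31, rose by 1.86 (adjusted p 4.42e-06, SE 0.35). H4C4 passed the filter on low counts only through shDDX21, the group where it was higher, so its call is not separate support. These genes encode the same H4 protein from separate copies, and their groups did not overlap. H4C16, H4C9 and H4C12 rose by 1.19, 1.11 and 0.68. H4C3 was not called: its 19, 17 and 15 shNC counts overlapped its 17, 22 and 24 shDDX21 counts, and the interval of its log2 fold change ran from -0.38 to 0.89.

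**Figure D3:**
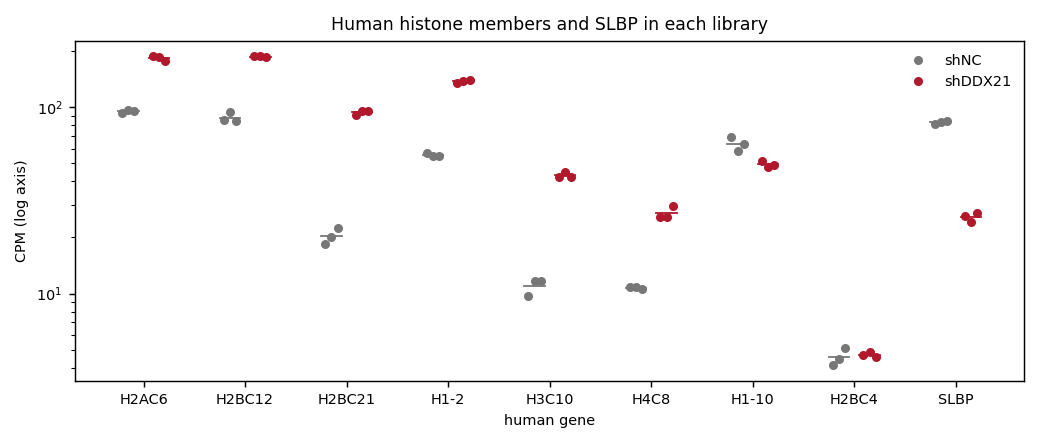
CPM on a log axis of 8 human histone members and of SLBP in each library; points are libraries, short lines are group means, grey is shNC and red shDDX21. H2AC6, H2BC12, H2BC21, H1-2, H3C10 and H4C8 are higher in every shDDX21 library, H2BC4 overlaps, and H1-10 and SLBP are lower.

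A few genes dominated the measured pool. In shNC, H2AC6, H2BC12, H1-10 and H1-2 together held 67.5% of the summed member CPM; in shDDX21 the 4 highest were H2BC12, H2AC6, H1-2 and H2BC21, with 63.8%. Levels can be compared between genes only per length. Per kilobase of exon, H2AC6 was at 57.1 CPM in shNC and 110 in shDDX21, H2BC12 at 46.9 and 99.6, and H1-2 at 32.3 and 80.6. H1-10 was at 41.9 CPM per kilobase in shNC, above H1-2, and at 32.7 in shDDX21, below it. H2BC5 and H2BC21 were at 20.8 and 9.15 CPM per kilobase in shNC and at 44.8 and 42.2 in shDDX21. The levels of H2BC5 and H2BC21 lay closer together in shDDX21 than in shNC, but this did not hold across H2B genes. H2BC11, at 3.53 in shNC and 4.94 in shDDX21, and H2BC4, at 1.58 and 1.63, lay further below H2BC21 in shDDX21.

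The genes of the divergent H2A and H2B pairs did not all move alike. In such a pair the genes are transcribed away from each other from a short shared interval. The pair with the highest level was H2BC4 and H2AC6, with 218 bases between their starts: H2AC6 rose by 0.95 while H2BC4 had a log2 fold change of 0.04 and was not called. H2BC11 and H2AC11, 247 bases apart, rose by 0.48 and 0.89. In the other pairs both genes rose, H2BC8 and H2AC8 by 0.88 and 1.21, and H2AC15 and H2BC15 by 1.48 and 0.95. The difference within a pair was not tested.

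Increases were called on chromosomes 6, 1 and 12 and in short and long genes. Over all genes tested, 25.3% were called higher and 27.4% lower. On chromosome 6, 23 of 27 tested members were called higher, with a median log2 fold change of 1.11. The 3 members on chromosome 1, H2BC18, H3C13 and H2BC21, were all called higher, as was H4C16 on chromosome 12, while H1-10 on chromosome 3 was called lower. Of the 13 tested members with under 1000 exon bases, 10 were called higher, with a median of 1.10. Of the 19 longer members, 17 were called higher and 1, H1-10, lower, with a median of 1.17. Another annotated gene overlapped 24 of the 33 members, and the strand setting of the counting and its treatment of reads that match several copies are not given in the sources used here. All 9 members that overlap no other gene (H1-2, H2BC21, H2BC11, H2AC11, H2AC13, H3C10, H4C12, H2AC15 and H2BC15) were called higher, with a median of 1.32. Reads from copies with near-identical coding sequence can still be divided between genes in a way the counts do not show, so values of single copies are less certain than those of the types.

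Genes that act in making histone messages mostly moved the other way. Of 19 genes for histone transcription and 3′ end processing, 16 were called lower and 2 higher, with a median log2 fold change of -0.35; of all genes tested 27.4% were called lower and 25.3% higher. SLBP, which binds the stem-loop, had 1535, 1277 and 1497 counts in shNC against 507, 410 and 476 in shDDX21. It fell by 1.68 on the log2 scale (adjusted p 4.56e-42, SE 0.050), and its shDDX21 libraries lay far below the shNC ones. ERI1, an exonuclease that trims the histone 3′ end, fell by 1.02 (adjusted p 2.02e-08, SE 0.15). NPAT, the coactivator of histone gene transcription, fell by 0.35, and CASP8AP2, a partner of NPAT, by 0.35. LSM11 of the U7 particle and ZNF473 fell by 0.49 and 0.50, whereas LSM10 was not called (0.00, adjusted p 0.98). The genes called higher were SYMPK, a scaffold of the cleavage machinery (0.13), and HINFP, a transcription factor for H4 genes (0.20).

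Most histone chaperone and replication genes were called lower as well. Of 15 genes for histone chaperones and import found, 11 were called lower and 1, NAP1L1, higher, against the same shares of all genes. The subunits of the replication-coupled assembly factor CHAF1A and CHAF1B fell by 0.73 and 1.09, and NASP and ASF1B, which carry H3 and H4, by 0.72 and 0.66. All 20 genes of the DNA replication list, such as MCM6 and GINS2, were called lower, with a median of -0.70. Of 5 histone message decay genes, 3 were called lower and 1 higher, where 52.7% of all genes were called in either direction; UPF1, which starts decay of histone messages, fell by 0.11. The replacement variants split: H3-3A and H3-3B rose by 0.25 and 0.33. H2AZ2 fell by 1.23, H2AZ1 by 0.50, CENPA by 0.53, MACROH2A1 by 0.27, MACROH2A2 by 0.23 and H2AX by 0.17. Thus 6 of these 8 variants were called lower, against 27.4% of all genes tested, in the same libraries in which 27 histone members were called higher.

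Lineage markers moved in the same libraries, where 25.3% of all genes tested were called higher and 27.4% lower. Of the granulocyte and monocyte markers found, 5 of 6 were called lower, and their summed level went from 596–613 CPM in shNC to 491–497 CPM in shDDX21. All 4 macrophage markers were lower (125–136 to 72–76.3 CPM), 4 of 7 erythroid markers were higher (407–425 to 474–492 CPM), and 2 of 3 megakaryocyte markers were higher (1490–1550 to 1760–1790 CPM). Of 5 endothelial markers 1 was called higher and 3 lower, and of 4 tested mesenchymal markers 2 were called higher and 2 lower. None of these found markers was at 0. The markers of the sort, CD34, SPN (CD43) and PTPRC (CD45), were present in all libraries. Of 5 markers of pluripotent cells, 2 were found, LIN28A and DPPA4, and were present in all libraries. POU5F1, NANOG and SOX2 of the same list were not found among the genes with a symbol. CD34 rose from 248.6 CPM in shNC to 297.5 CPM in shDDX21 and SPN from 690.8 to 883 CPM. PTPRC fell from 94.95 to 69.35 CPM, by 0.45 on the log2 scale (edgeR adjusted p 6.22e-17). The part of the lineage markers and of the replication genes in the histone values was not tested.

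In the mouse the histone messages had few counts and few members were called. Of 7 members, 2 were called lower and 1 higher in cKO; over all 14918 genes tested, 15.8% were called lower and 20.7% higher, and counts this small cannot be told from those shares. The calls of H2ac25 and H2ac6 were lost in 8 and 5 of 13 alternatives. At least a 2-fold increase was called for 0 of the 7 members, against 7.27% of all genes, and all cKO libraries lay above WT for 1 member and below for 3, against 27.6% and 21.4%. The median log2 fold change was -0.39. Summed over the 7, the level was 26.1 ± 2.89 CPM in WT against 21.45 ± 1.33 CPM in cKO libraries (SD, n = 3 each), and WT replicate 3, at 22.8 CPM, lay below cKO replicate 1, at 22.95 CPM. Human members together were at 448 CPM in shNC, though the counted sets, species and libraries differ and the levels were not compared further.

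To show what a poly(A) library can catch from these genes, the 3′ ends of the mouse members were searched in the GENCODE M21 transcripts (GRCm38). The consensus stem-loop after the stop codon was found in 5 of 7 members, against 0.29% of 47808 coding transcripts and 66.2% of the 71 transcripts with histone names. It is printed here 5′ to 3′ as DNA with 5 flanking bases on each side and the 16 bases of the stem-loop in capitals.
H2ac6 (chr13:23683477-23683492, minus strand): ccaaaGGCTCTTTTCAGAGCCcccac
H2bc9 (chr13:23542928-23542943, minus strand): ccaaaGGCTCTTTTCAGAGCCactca
H2bc6 (chr13:23585531-23585546, minus strand): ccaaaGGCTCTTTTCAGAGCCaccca
H2ac25 (chr11:58955172-58955187, plus strand): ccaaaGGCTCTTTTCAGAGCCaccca
H4c9 (chr13:22040966-22040981, minus strand): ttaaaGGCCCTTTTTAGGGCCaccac
The stem-loop letters are the same in H2ac6, H2bc9, H2bc6 and H2ac25 and differ in H4c9. In all 5 the annotated transcript runs on beyond the stem-loop, by 2010 bases in H2ac6, 1861 in H2bc6, 1643 in H2ac25, 1214 in H2bc9 and 330 in H4c9. No match was found in the annotated transcripts of H2bc21 and H2bc4.

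The poly(A) signal AATAAA or ATTAAA was found within the last 40 bases of the transcripts of 4 members. These are shown with 10 bases before the signal and 8 after it, the signal in capitals.
H2bc21: tattattattAATAAAgttaccga
H2ac25: gtatatgcccAATAAAataagagt
H2bc6: tgtgttccttATTAAAgcattcct
H4c9: ttctgtttacATTAAAagtattct
H2ac6, H2bc9 and H2bc4 had no such letters there. Over all coding transcripts 59.4% held a signal in this window, and over transcripts with histone names 25.4%. Per kilobase of exon, H4c9, which has a stem-loop and a poly(A) signal, was at 8.22 CPM in WT and 5.08 in cKO. H2bc21, with a signal and no matched stem-loop, was at 4.29 and 4.28. H2bc6 and H2ac25, which have both, were at 0.777 and 0.254 in WT. H2bc4, H2bc9 and H2ac6, without a signal, were at 1.43, 0.787 and 0.773 in WT. Members with a signal thus lay both above and below those without.

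H2bc21 (ENSMUSG00000068854; GRCm38 chromosome 3, plus strand, 96221119 to 96223738), the mouse H2B type 2-E gene, had 252, 237 and 235 counts in WT against 262, 277 and 243 in cKO. Its level was 11.25 ± 0.318 CPM in WT libraries against 11.2 ± 0.195 CPM in those of cKO (SD, n = 3 each), the groups overlapped, and the 95% interval of the log2 fold change ran from -0.15 to 0.15. None of its stretches of 50 bases occurs in the transcripts of another gene, against 14.1% to 31.5% of those of the other 6 members. It is thus the mouse member whose reads are least open to sharing between copies.

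The lower members were H2ac6 and H2bc9. H2bc9 (ENSMUSG00000114456; chromosome 13, minus strand, 23541714 to 23543392), a clustered H2B gene, had 28, 27 and 30 counts in WT against 11, 15 and 15 in cKO. The groups were well apart, and H2bc9 fell by 1.16 on the log2 scale (adjusted p 0.00444, SE 0.21). H2ac6 (ENSMUSG00000069270; chromosome 13, minus strand, 23681467 to 23683948) had 43, 30 and 51 counts in WT against 21, 31 and 15 in cKO. It fell by 1.001 (adjusted p 0.0272, SE 0.28), with every cKO library below every WT library after scaling. The call was lost when WT replicate 1 or 3 or cKO replicate 1 or 3 was left out, with adjusted p up to 0.0888. It was also lost with the replicate number as a block, at an adjusted p of 0.0558.

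H2ac25 (ENSMUSG00000078851; chromosome 11, plus strand, 58954685 to 58956830), an H2A gene outside the large clusters, had 12, 12 and 11 counts in WT against 31, 24 and 16 in cKO. All cKO libraries were above WT, and the log2 fold change was 0.90 (adjusted p 0.0471, SE 0.29). The call did not hold with DESeq2 (adjusted p 0.193), without the filter on low counts (0.0626) or with the replicate block (0.0589). It was also lost when any 1 WT library, cKO replicate 1 or cKO replicate 2 was left out, with adjusted p of 0.0812 to 0.122. H2ac25 shares 33.0% of its exon bases with overlapping genes, Trim17 among them. Its value therefore rests on few counts and on a gene with a neighbour in the same place.

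The other members were not called. H2bc6 (chromosome 13, minus strand, 23583670 to 23621124) had 77, 78 and 67 counts in WT against 50, 70 and 64 in cKO. After scaling all its cKO libraries were below WT, with a log2 fold change of -0.39 (adjusted p 0.0966); it overlaps the linker histone gene Hist1h1e. H2bc4 had 48, 36 and 23 counts in WT against 42, 24 and 27 in cKO, with an interval of -0.95 to 0.33. H4c9 (chromosome 13, minus strand, 22040636 to 22041362) had 170, 140 and 75 counts in WT against 110, 77 and 70 in cKO, a log2 fold change of -0.69 (adjusted p 0.121). Its WT replicate 3 lay among the cKO libraries, and without it the log2 fold change was -0.97 with an adjusted p of 0.0124. With any other library left out H4c9 was not called, at -0.91 to -0.477 with adjusted p of 0.0578 to 0.335 in edgeR. The same WT library was lowest of the 3 for H2az1, Cdt1 and Fen1, with 3590, 1527 and 114 counts. It was highest of the 3 for Ccne1, Ccne2, Npat and Casp8ap2, so listed genes went both ways. These genes were picked after their values were seen.

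**Figure D4:**
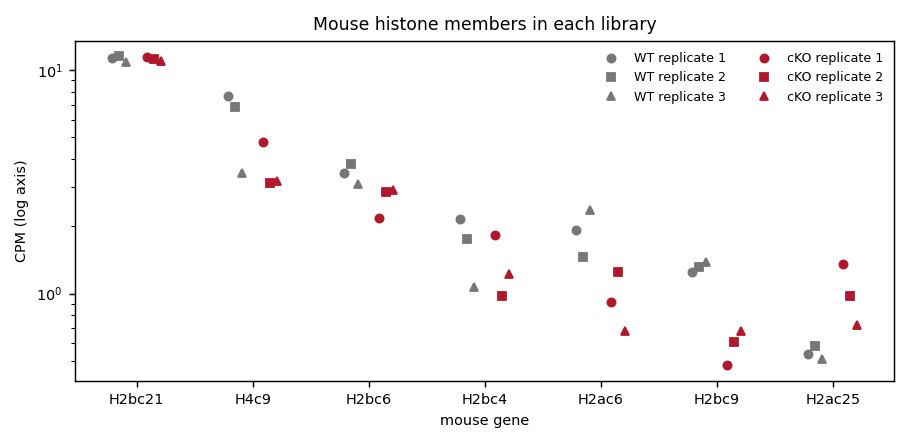
CPM on a log axis of the 7 mouse histone members in each library, ordered by CPM; marker shape gives the replicate, grey is WT and red cKO. H2bc21 is level in all 6 libraries, H2ac6 and H2bc9 are lower and H2ac25 higher in cKO, and WT replicate 3 of H4c9 lies among the cKO points.

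The mouse H2ac6 and H2bc4 genes form a divergent pair with 250 bases between their starts. The interval is printed because H2ac6 was called lower and H2bc4, with a log2 fold change of -0.31, was not. It runs between the starts in the deposited positions (chr13:23683949-23684198, minus strand). It was cut from the RefSeq window of H2ac6 (GRCm38.p6), in lower case with motif matches in capitals. The label below names the pair and not the reading direction. As minus-strand letters, the sequence begins beside the start of H2bc4 and ends beside that of H2ac6. The letters searched, on both strands, were CCAAT (the CCAAT box), the TATA box as TATAAA, and the octamer ATTTGCAT.
H2ac6 to H2bc4: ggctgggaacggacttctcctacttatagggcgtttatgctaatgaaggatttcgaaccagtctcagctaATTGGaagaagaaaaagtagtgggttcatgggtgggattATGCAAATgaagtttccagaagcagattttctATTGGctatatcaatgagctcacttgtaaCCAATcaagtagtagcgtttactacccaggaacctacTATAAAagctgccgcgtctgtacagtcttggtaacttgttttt
The interval holds 3 CCAAT, 1 octamer and 1 TATAAA match, the last near the H2ac6 end. Of the 32851 RefSeq promoter windows, 33.8% held CCAAT, 1.6% the octamer and 12.4% TATAAA in the 250 bases before the start. A match describes letters only and was not tested as a site.

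A further 62 mouse genes match the same name patterns in GENCODE M21 but are not in the deposited name table. Of these, 19 had no count in any library, and the most in any library was 21 counts. Hist1h1a, Hist1h1d, Hist1h3d and Hist1h4d, 4 of the 62, had at least 10 counts in at least 3 libraries and are still outside that table. With them, the summed level of 69 genes was 33.6 ± 4.26 CPM in WT against 25.5 ± 2.15 CPM in cKO libraries (SD, n = 3 each). Only 3 of the 62 could be tested: Hist1h4d was called lower (-1.44, adjusted p 0.0282), and Hist1h1a and Hist1h1d were not called. Hist1h4d passed the filter on low counts only through WT, the group where it was higher. This widening was added after the data were seen. H1f2, the mouse somatic linker gene named Hist1h1c in M21 and written in a style that the pattern does not take, is in neither set. It had 175, 149 and 135 counts in WT against 181, 147 and 148 in cKO, its groups overlapped, and its log2 fold change of -0.06 (interval -0.33 to 0.22, adjusted p 0.778) was not called; it was also added after the data were seen.

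Mouse genes for histone supply were lower or not called. Of 19 transcription and 3′ end genes, 9 were called lower and 0 higher (15.8% and 20.7% of all genes tested), with a median of -0.20. At an unadjusted p under 0.05 edgeR had 0 of these genes higher and 10 lower, and DESeq2 called 0 higher and 6 lower. Slbp had 6054, 5710 and 5830 counts in WT against 4426, 5008 and 4469 in cKO, and fell by 0.45 (adjusted p 0.0001, SE 0.036). Npat, Casp8ap2, Lsm11 and Eri1 fell by 0.32, 0.20, 0.23 and 0.20. Lsm10 and Zfp473, at -0.23 and -0.25, were not called, although all cKO libraries were below WT.

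Of 16 chaperone and import genes, 9 were called lower against 15.8% of all genes, with Chaf1a, Chaf1b, Nasp and Asf1b falling by 0.58, 0.34, 0.32 and 0.45. Of the 5 decay genes 0 were called by edgeR, with 2 lower at an unadjusted p under 0.05, and DESeq2 called 1 lower; Upf1 was at -0.29 (adjusted p 0.104). Of 20 DNA replication genes 18 were called lower, with a median of -0.44. Over transcription, decay and chaperone genes together, 18 were called; this fell to 11 without WT replicate 1, 11 without WT replicate 2 and 10 without cKO replicate 3, and to 10 with upper-quartile or total-count scaling. Among replacement variants, H2aj and Macroh2a1 rose (0.46 and 0.32), and H2az1, H2ax and Cenpa fell by 0.81, 0.32 and 0.46. H2az2, Macroh2a2, H3f3a, H3f3b and H3f3c were not called.

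Markers of other cells moved in the mouse libraries too, where 20.7% of all genes tested were called higher and 15.8% lower. All 5 tested hepatocyte markers were higher, from a sum of 10.7–12.5 CPM in WT to 40.8–45.2 CPM in cKO, with Serpina1c at 0 in all libraries. Of 8 granulocyte and monocyte markers 6 were lower (658–916 to 325–568 CPM). Of 9 erythroid markers 4 were higher and 2 lower (365–468 to 425–619 CPM), and 3 of 5 megakaryocyte markers were higher (63–74.8 to 111–148 CPM). Of 5 endothelial markers 3 were higher (48.4–52.2 to 82.1–89.6 CPM). Of 2 tested mesenchymal markers 1 was higher, and all found summed to 2.83–5.99 CPM in WT and 8.55–14.4 CPM in cKO. Of 3 tested macrophage markers 1 was higher and 1 lower. Kit, the marker of the sort, fell from 362.3 CPM in WT to 316.9 CPM in cKO (edgeR adjusted p 0.00334). The part of these cells in the histone values was not tested.

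The experiments could be set side by side for 6 members that bear the same name in both species, without a claim that they are single matched copies. An interaction fit of all 12 libraries over 10313 genes matched by symbol tested the mouse effect minus the human effect. It was added after the data were seen. The fit took a single spread per gene for both experiments, whose biological coefficients of variation were 10.5% in mouse and 2.23% in human. SEs and adjusted p below may thus be too small: for H2AC6 the mouse effect alone had an SE of 0.28. The difference was called in 5 of the 6, each with the mouse effect lower, against 20.4% of the matched genes called in that direction. For H2BC21 the effect was 0.00 in mouse and 2.21 in human, a difference of -2.21 (adjusted p 6.58e-09, SE 0.096). For H2AC6 it was -1.001 and 0.95, a difference of -1.94 (adjusted p 1.45e-05, SE 0.22), and for H2BC9 -1.16 and 0.92, a difference of -2.08 (adjusted p 1.28e-05, SE 0.23). For H2BC6 the difference was -1.89 (adjusted p 0.00019) and for H4C9 -1.80 (adjusted p 0.00722). H2BC4 was not called in either species, with a difference of -0.35 (adjusted p 0.391, SE 0.34). Species, cell source and the means of lowering DDX21 differ together between the experiments and cannot be told apart.

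**Figure D5:**
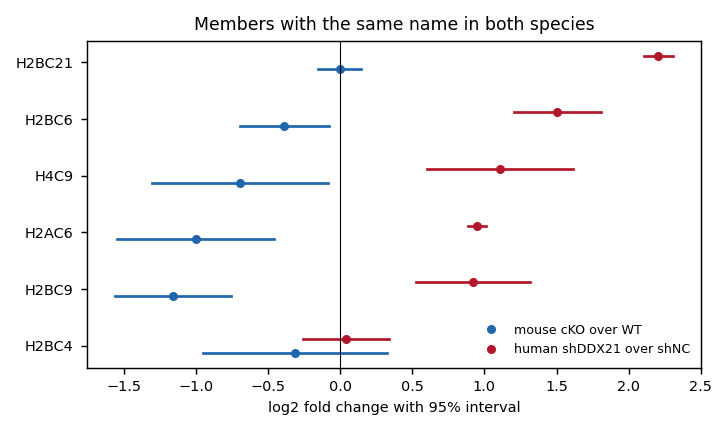
Log2 fold change with its 95% interval for the 6 members with the same name in both species; blue is mouse cKO over WT and red human shDDX21 over shNC. The red points lie to the right of the blue for all 6, and for H2BC4 the bars overlap.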

How the data were processed

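Polyadenylated RNA was measured in 12 libraries, 3 in each of 4 groups. The authors deposited raw counts per gene as whole numbers, with gene positions and exon length. They also deposited a normalized table of signal values with log2 ratios; it was used here for gene symbols only, and its values were checked to be the raw counts over 1 constant per library. Per the submitters' processing notes, STAR, featureCounts and DESeq2 were used, with builds mm10 and hg38. Strand and multi-mapping settings are not given in the sources used here. Human positions are as the deposited table has them, and the only human build in the notes is hg38.

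Counts were fitted per experiment with edgeR 4.0.16 in R 4.3.3 (filterByExpr, TMM factors, two-sided quasi-likelihood test, no covariates), and p-values were adjusted by Benjamini-Hochberg over all genes tested. Depth was 15289510 to 23898130 counts per library. The biological coefficient of variation was 10.5% in the mouse and 2.23% in the human experiment. With 3 libraries against 3 the smallest two-sided p of an exact permutation test is 0.1, and none was run. Intervals of 95% are 1.96 SE on either side. The procedure was tested on simulated data with 200 changed genes. No changed gene had mean counts as low as those of H2bc9, H2ac6 and H2ac25, so the simulation does not bear on their calls. No column of per-sample values was left unused (0 columns).

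Alternatives were DESeq2 1.42.0, RLE, upper-quartile and total-count scaling, no filter, at least 10 counts in every library, the replicate number as a block, leaving out each library, and leaving out members that overlap another gene. Of the genes that match the name patterns, 1 human gene is not reported here and is in no count or sum of members. The members and the gene lists were chosen with earlier results of these data known. Named members were the 10 largest called changes each way at 1 CPM or more, the most abundant of each type, every tested linker histone described and the 2 divergent pairs with the highest level. Named list genes were SLBP, NPAT, CASP8AP2, LSM10, LSM11, ZNF473, ASF1B, CHAF1A, CHAF1B, NASP, UPF1, ERI1, the replacement variants and DDX21. Others that are named were chosen after their values were seen. Mouse sequences come from GENCODE M21 and the RefSeq promoter table (GRCm38.p6), in which 4 of the 7 mouse members had a window. Human sequences were not analysed here.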

Additional observations from a re-analysis of the deposited data

Results flagged for a closer look

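Members with the same name had different effects in the experiments, by the interaction test on all 12 libraries with Benjamini-Hochberg adjustment in edgeR. That fit took a single spread per gene for both experiments, though the mouse libraries spread more. The mouse minus human difference in log2 fold change was -2.209 for H2BC21, -2.079 for H2BC9, -1.944 for H2AC6, -1.893 for H2BC6 and -1.801 for H4C9. Over the 16 alternatives run for each of these 5, the difference was called and kept its sign. The test was added after the data were seen, and 56.2% of the 10313 matched genes differed in either direction by the same test. No cause of the difference was tested.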

How the results depend on the processing

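All 28 called human members kept their direction and call under each of the 13 alternatives run for them, or 12 for H4C4, which the stricter count filter left out. The count of human members called higher was 27 to 28 and that called lower 1 with any 1 library left out. Without members that overlap another gene they were 9 and 0, as fewer members were counted. The human median log2 fold change was 1.211 with upper-quartile factors, 1.105 without the filter, 1.315 without overlapping members and 1.11 to 1.158 with 1 library left out. The summed human types gave, with upper-quartile factors, 0.725 for H1, 1.106 for H2A, 1.314 for H2B and 1.286 for H4. Without overlapping members they gave 1.317 for H1, 1.464 for H2A, 1.61 for H2B, 1.965 for H3 and 0.687 for H4. The values for H1, H3 and H4 each rest on a single gene, H1-2, H3C10 and H4C12 in turn.

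Mouse members called higher fell from 1 to 0 with DESeq2, without the filter, with the replicate block and without overlapping members, and were 0 to 1 with 1 library left out. Those called lower were 1 without overlapping members and 1 to 2 with 1 library left out. The mouse median was -0.502 without overlapping members and -0.586 to -0.319 with 1 library left out. The summed H2B ratio was -0.097 with total counts. Mouse supply genes called were 10 with upper-quartile factors and 10 with total counts, and 10 to 17 with 1 library left out.

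Signs turned only among members that were not called. H2bc21 was at 0.022 with upper-quartile factors, 0.062 with total counts, 0.011 under the stricter count filter (10 in all libraries) and -0.03 to 0.01 with 1 library left out. H1-4 was at -0.023 with total counts, 0 with the replicate block and -0.137 to 0.134 with 1 library left out. H2BC4 was at -0.035 to 0.132 with 1 library left out. The cause was not tested.

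Same-numbered libraries did not deviate together in all pairs (correlations across genes 0.449, -0.263 and 0.0389 in the mouse and -0.0178, -0.00139 and 0.00206 in the human experiment), so the numbers were not taken as pairs. Mouse libraries of different numbers deviated together or apart as strongly, at 0.54 for WT replicate 3 with cKO replicate 2, -0.563 for WT replicate 3 with cKO replicate 1 and -0.424 for WT replicate 1 with cKO replicate 2. The replicate block ended the calls of H2ac25 and H2ac6 and added H4c9, at -0.669 with an adjusted p of 0.0446 in edgeR. Low counts limit H2bc9, H2ac6 and H2ac25, with 11 to 51 per library.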
